A study of Mus musculus with 43 samples.

Results

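The core circadian clock genes were followed in the brains of 2 mouse models of Alzheimer's disease, with and without the NRF2 inducer CDDO-2P-Im. The 10 genes were taken by symbol: Per1, Per2, Per3, Cry1, Cry2, Arntl (the gene of BMAL1), Clock, Nr1d1 and Nr1d2 (REV-ERB alpha and beta) and Dbp. They are 10 of the 55804 gene entries in each of the 2 deposited expression tables, and all 10 passed the filter on low values in both tables.

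The clock is a loop of transcription and translation. CLOCK and BMAL1 bind E-boxes and switch on Per, Cry, Nr1d1, Nr1d2 and Dbp, and the PER and CRY proteins then enter the nucleus and shut CLOCK and BMAL1 off. The REV-ERB proteins repress Arntl, so that Arntl peaks when Dbp and Nr1d1 are low, and the loop also runs in brain regions outside the master clock of the suprachiasmatic nucleus.

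RNA of 43 brains was sequenced in 2 cohorts. The AppNLGF cohort held mice aged 6 months: 4 wild-type mice given vehicle, 11 AppNL-G-F/NL-G-F mice given vehicle and 13 such mice given CDDO-2P-Im for 4 weeks. AppNLGF mice carry mutations knocked into their own App gene. The APP/TAU cohort held mice aged 11 months, with 5 wild-type mice given vehicle, 5 APPV717I::TAUP301L mice given vehicle and 5 given CDDO-2P-Im for 2 weeks. APP/TAU mice carry transgenes for mutant human APP and mutant TAU, whose promoters the labels do not name. CDDO-2P-Im, a synthetic oleanane triterpenoid, was given by mouth at 30 µmol per kg body weight, 3 times a week, and the vehicle was DMSO and Chremophol EL (the labels' spelling) in PBS. The labels give neither the time of day at which brains were taken, nor the brain region, nor the sex of the mice. Time of collection and group therefore cannot be told apart here, and each mouse gives a single time point of genes that cycle over the day. Nothing in the labels says that libraries of a group came from separate litters or days, so a p-value here speaks of the spread among these libraries only.

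Values are TPM, an abundance of transcripts corrected for their length and scaled to a fixed total per library. The number of reads behind a value is unknown. Because 1 very abundant RNA, ENSMUSG00000118866, took 15.5 to 40.0% of the TPM of a library, each comparison was also made after median-ratio scaling, in which each library is divided by its median ratio to the typical library. Neuron markers summed to 1512 TPM or more in every library. Markers of brain regions set the cohorts apart: 10 striatal genes summed to 481 to 854 TPM in AppNLGF cohort libraries and to 107 to 188 TPM in APP/TAU cohort libraries, while 10 cerebellar genes summed to 67.2 to 105 TPM and to 605 to 931 TPM. Levels in the 2 cohorts come from tables normalized separately and are not tested against each other.

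The 4 stretches of genome just before transcription start sites are shown because Per1 and Nr1d1 carried the genotype differences described below, and Per3 and Cry2 varied with Per1 across libraries of the APP/TAU cohort. They are the 250 bases before a RefSeq transcription start on the mouse build GRCm38.p6, 5′ to 3′ on the gene's strand, and capitals mark matches to the motifs searched. The Per1 stretch (chr11:69098699-69098948, plus strand) lies inside the gene as annotated by GENCODE M21 (chr11:69095217-69109960), before an internal start site. A further internal start of Per1 has a stretch (chr11:69099902-69100151) with no match to any motif searched, which is not shown. The Nr1d1 stretch (chr11:98775378-98775627, minus strand) and the Cry2 stretch (chr2:92434070-92434319, minus strand) lie just upstream of the annotated genes, and so does that of Per3 (chr4:151044666-151044915, minus strand).
Per1: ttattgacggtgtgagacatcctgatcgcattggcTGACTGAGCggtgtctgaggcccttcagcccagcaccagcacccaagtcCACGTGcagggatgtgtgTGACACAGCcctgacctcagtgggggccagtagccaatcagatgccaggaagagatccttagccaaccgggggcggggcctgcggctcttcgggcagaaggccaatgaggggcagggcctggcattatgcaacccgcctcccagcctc
Nr1d1: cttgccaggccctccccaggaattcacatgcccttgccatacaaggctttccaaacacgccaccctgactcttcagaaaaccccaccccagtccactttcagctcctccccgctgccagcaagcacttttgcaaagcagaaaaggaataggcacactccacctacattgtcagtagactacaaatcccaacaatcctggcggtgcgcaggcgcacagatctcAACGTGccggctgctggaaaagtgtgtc
Per3: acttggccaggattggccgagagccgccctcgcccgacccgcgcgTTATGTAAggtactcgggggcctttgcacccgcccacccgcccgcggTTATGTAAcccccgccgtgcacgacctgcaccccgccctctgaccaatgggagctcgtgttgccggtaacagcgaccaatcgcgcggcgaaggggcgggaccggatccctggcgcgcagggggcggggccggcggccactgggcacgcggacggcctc
Cry2: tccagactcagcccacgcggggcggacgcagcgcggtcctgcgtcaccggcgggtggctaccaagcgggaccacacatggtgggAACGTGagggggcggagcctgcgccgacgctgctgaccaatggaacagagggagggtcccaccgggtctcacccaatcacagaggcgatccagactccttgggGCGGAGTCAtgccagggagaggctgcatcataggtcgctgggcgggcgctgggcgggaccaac
Counted back from the start site, the Per1 stretch holds an E-box, CACGTG, at position -166 and matches to TGACNNNGC, the core of the antioxidant response element that NRF2 binds, at -215 and -148. The Nr1d1 stretch holds 1 match to the E-box variant CACGTT, read on the other strand as AACGTG, at -28. The Per3 stretch holds 2 matches to TTANGTAA, the D-box bound by DBP, at -205 and -158. The Cry2 stretch holds the CACGTT variant at -166 and TGACNNNGC at -63. Among 32851 such stretches, searched on both strands, 6.02% held CACGTG, 3.85% CACGTT, 2.06% TTANGTAA and 10.2% TGACNNNGC. A pair of other motifs was searched, TAGGTCA, bound by REV-ERB and ROR proteins, and TGACGTCA, the cAMP response element, which 2.23% and 1.55% of stretches held and none of these 4 did. None of the matches overlap. The stretch of Cry1 held CACGTG at -60 and AACGTG at -79, and those of Arntl, Clock, Nr1d2 and Dbp held no match. Sequences were available for 9 of the 10 genes, all except Per2. A match is a run of letters and was not measured as a binding site.

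In the gene entries of wild-type brain at 6 months, Nr1d1 had the highest level, 53.9 ± 3.20 TPM (SD, n = 4). It was followed by the output gene Dbp at 48.3 ± 8.16, the repressor Cry2 at 46.5 ± 2.24 and Per1 at 42.0 ± 7.08. Nr1d2 came next at 32.8 ± 2.61 TPM, then Clock at 19.2 ± 1.53, Per2 at 11.6 ± 1.57, Arntl at 10.8 ± 2.03, Per3 at 9.72 ± 0.85 and Cry1 at 7.99 ± 0.94. The libraries of neighbours in this order overlapped except at the steps from Nr1d2 to Clock and from Clock to Per2. In wild-type brain at 11 months, Nr1d1 again had the highest level, 42.9 ± 5.64 TPM (SD, n = 5), and Cry2 (38.1 ± 4.35), Nr1d2 (37.8 ± 4.27), Per1 (26.7 ± 5.89), Dbp (25.5 ± 4.66) and Clock (22.8 ± 3.06) followed. Arntl had 12.8 ± 2.64 TPM, Cry1 10.7 ± 0.85, Per2 9.53 ± 2.89 and Per3 9.20 ± 1.44. Here the step from Clock to Arntl was the sole one between neighbours without overlap. So by gene entries Nr1d1, Cry2, Nr1d2, Per1, Dbp and Clock stood above Arntl, Per2, Per3 and Cry1 in both tables.

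**Figure D1:**
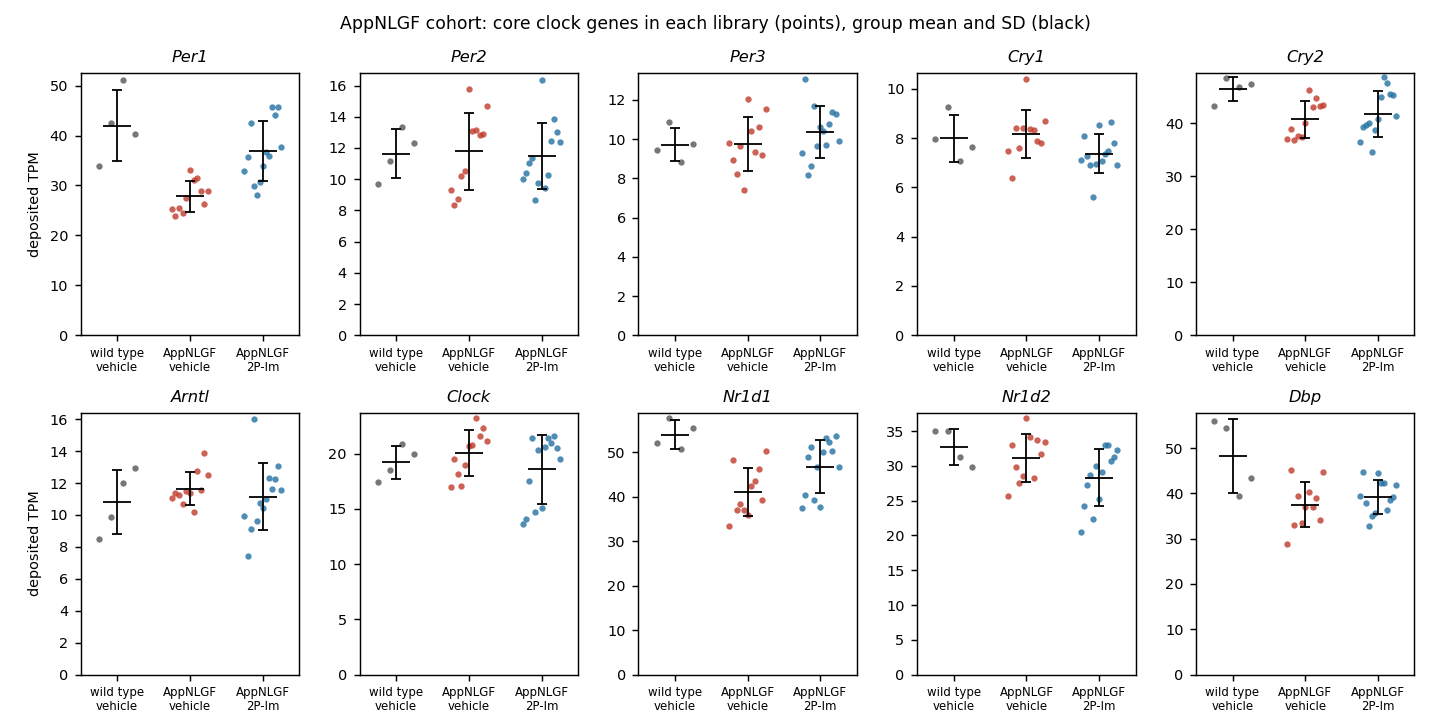
TPM of the 10 clock genes in each library of the AppNLGF cohort, as deposited, by group: 4 from wild type, 11 from vehicle and 13 from treated AppNLGF mice. Points are libraries, and lines and bars are the mean and SD. In the gene entry of Per1, vehicle libraries (23.9 to 33.1 TPM) lie below every wild-type library (34.0 to 51.1 TPM).

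The first comparison asked how the AppNLGF genotype relates to clock gene levels. Per1, the period gene that light, neuronal activity and glucocorticoids also induce rapidly, was lower in AppNLGF mice. It had 34.0, 42.5, 51.1 and 40.2 TPM in the wild-type libraries, and a lowest, median and highest value of 23.9, 27.4 and 33.1 TPM in the 11 vehicle libraries. In the gene entry, all 11 vehicle libraries lay below the lowest wild-type library, and the groups did not overlap. A transcript of Per1 listed apart from that entry, ENSMUST00000132462, ranged from 0 to 14.7 TPM in wild type and from 0 to 9.78 TPM with vehicle. The gene entry of Per1 fell by 0.57 ± 0.12 on the log2(TPM + 1) scale (SE), from 42.0 ± 7.08 to 27.9 ± 3.08 TPM (SD), with an adjusted p of 0.0153 in limma. After median-ratio scaling the difference was -0.54 ± 0.09 with an adjusted p of 0.0015.

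Of the further targets of CLOCK and BMAL1, Nr1d1, Dbp and Cry2 had lower means beside Per1. The targets Per2, Per3, Cry1 and Nr1d2 differed little, by -0.001, -0.005, 0.03 and -0.07. Nr1d1, which encodes the repressor REV-ERB alpha, had 52.0, 57.7, 50.6 and 55.4 TPM in wild type and 33.5, 39.2 and 50.1 TPM as lowest, median and highest vehicle values. Its vehicle libraries all lay below the wild-type ones, with a difference of -0.39 ± 0.10 that did not pass limma's test as deposited (adjusted p = 0.130) and passed after median-ratio scaling (-0.36 ± 0.07, adjusted p = 0.0025, 10 of 11 vehicle libraries below every wild-type one). Dbp, a transcription factor of the clock's output, had 55.9, 54.5, 39.4 and 43.4 TPM in wild type and 28.9, 37.0 and 45.2 TPM as lowest, median and highest vehicle values. Its groups overlapped, with 7 of 11 vehicle libraries below every wild-type library, and the difference of -0.35 ± 0.10 did not pass the test (adjusted p = 0.225 by limma, 0.439 after median-ratio scaling).

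Cry2, whose protein is a partner of PER in repression, had 43.3 to 48.5 TPM in wild type and 36.8 to 46.3 TPM in vehicle libraries. Its difference was -0.19 ± 0.08 (adjusted p = 0.935 by limma) as deposited and -0.16 ± 0.04 (0.0741) after scaling, where all 11 vehicle libraries lay below wild type. The other 6 genes differed by between -0.07 (Nr1d2) and 0.11 (Arntl), with Per2 at 11.8 ± 2.49 against 11.6 ± 1.57 TPM and Per3 at 9.74 ± 1.37 against 9.72 ± 0.85 TPM (SD). The clock's activators Arntl and Clock differed by 0.11 ± 0.12 and 0.05 ± 0.11. In all, 1 of the 10 genes passed the test, against 0.28% of all tested genes. After median-ratio scaling 2 passed (Per1 and Nr1d1), against 0.691%. The groups did not overlap for 2 genes as deposited (Per1 and Nr1d1), against 0.662% of all genes, and for 2 after scaling (Per1 and Cry2), against 0.882%. The median difference of the 10 genes was -0.040, beside -0.026 over all genes.

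The Per1 call as deposited was lost when wild-type replicate 2, 3 or 4 was left out (adjusted p = 0.0854, 0.194 and 0.0588 by limma), with differences of -0.56, -0.47 and -0.58. After median-ratio scaling it held without any 1 of the 15 libraries, at adjusted p up to 0.0280. The RNA of Xist, which female cells make, was above 10 TPM in 5 of 11 vehicle and 7 of 13 treated libraries and in no wild-type library. With a term for it in the fit, Per1 differed by -0.54 at an adjusted p of 0.0603 by limma. Wild-type libraries carry replicate numbers 1 to 4 alone, and among numbers 1 to 5 of both groups, a set chosen after seeing the data, Per1 differed by -0.69 (adjusted p = 0.0262 by limma), or by -0.56 after median-ratio scaling (0.0686). With a covariate that splits numbers 1 to 5 from the higher ones, 4 members passed as deposited, all lower, beside 201 of all 16776 genes: Per1 (-0.68, adjusted p = 0.0011 by limma), Cry2 (-0.30, 0.0047), Nr1d1 (-0.48, 0.0173) and Dbp (-0.41, 0.0467). With it after median-ratio scaling, 2 members (Per1 and Nr1d1) and 97 genes in all passed.

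Genes that neuronal activity induces within minutes moved in the same comparison: 8 of 15 immediate early genes were called lower (10 after median-ratio scaling), with a median difference of -1.15. Of all 16776 genes tested, 10 were called lower (23 after scaling). Sums of the immediate early genes ran from 386 to 568.3 TPM in wild type, from 173 to 317 TPM with vehicle and from 203 to 583 TPM after treatment. Genes induced by glucocorticoids did not pass the test in any comparison (0 of 12 in each). The summed level of 5 red blood cell genes was 84.6 to 246 TPM in wild type and 16.6 to 129 TPM in vehicle libraries, with 0 of the 4 tested called and a median difference of -1.45. Choroid plexus markers summed to 488 to 729 TPM in wild type and 7.13 to 688 TPM in vehicle libraries. Summed astrocyte and microglia markers separated the groups as deposited: 5 astrocyte genes summed to 527 to 576 TPM in wild type and 592 to 747 TPM in vehicle libraries, and 5 microglia genes to 86.8 to 96.1 TPM in wild type and to more in every vehicle library, with a median of 135 TPM and up to 148 TPM. Called higher were Gfap alone (1.58 ± 0.20) of the 5 astrocyte genes and C1qa (0.82 ± 0.14) of the 5 microglia genes, joined by Csf1r after median-ratio scaling. Over all genes 37 were called higher, and 93 after scaling. None of the markers in these lists was at 0 in every library, and their part in the Per1 result was not tested. In bulk tissue, fewer cells of a type and less RNA per cell cannot be told apart.

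The second comparison asked how CDDO-2P-Im treatment relates to clock gene levels in AppNLGF mice. Per1 was the member with the largest difference. It had a lowest, median and highest value of 28.1, 35.8 and 45.6 TPM in the 13 treated libraries, and 9 of them lay above every vehicle library. The difference of 0.38 ± 0.08 (36.9 ± 6.01 against 27.9 ± 3.08 TPM) fell short of the threshold as deposited (adjusted p = 0.0652 by limma) and passed after median-ratio scaling (0.42 ± 0.07, adjusted p = 0.0014, 11 of 13 libraries above every vehicle library). Nr1d1 had a lowest, median and highest value of 37.3, 48.9 and 53.7 TPM, and 9 of its 13 treated libraries lay below every wild-type library. Its difference from vehicle was 0.18 ± 0.07 (adjusted p = 0.759 by limma) as deposited and 0.22 ± 0.05 (0.0235) after scaling. The other 8 genes differed by between -0.14 (Nr1d2) and 0.08 (Per3). Dbp had 32.8, 39.2 and 44.8 TPM as lowest, median and highest value, within the vehicle range of 28.9 to 45.2 TPM. None of the 10 genes passed the test as deposited, where 0.0536% of all tested genes did, although 3 members had an unadjusted p under 0.05, beside 1036 of the 16776 genes tested. After median-ratio scaling 2 passed, both higher, against 0.286% of all genes.

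The calls of Per1 and Nr1d1 here depended on the scaling. As deposited, the Per1 difference passed on leaving out vehicle replicate 6 or treated replicate 4, 5 or 6, at adjusted p from 0.0179 to 0.0463 by limma, and after median-ratio scaling it passed without any 1 of the 24 libraries. The scaled Nr1d1 call was lost without vehicle replicate 1 (adjusted p = 0.0504 by limma) and without vehicle replicate 3 (0.0529). Within replicate numbers 1 to 5 alone, the scaled Per1 difference was 0.50 (adjusted p = 0.0898 by limma), and within numbers 6 and above it was 0.37 (0.196), both chosen after seeing the data. Immediate early genes moved here too, with 4 of 15 called higher (7 after median-ratio scaling) and a median difference of 0.59. Of all 16776 genes tested, 8 were called higher (41 after scaling). Of 11 tested NRF2 target genes, 1 was called higher, and 3 after scaling. The part of these genes in the Per1 difference was not tested.

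Against wild type, treated AppNLGF libraries had lower means for 8 of the 10 genes as deposited, where the median difference over all genes was -0.064. After median-ratio scaling Per2, Per3, Arntl and Clock were positive, and the median over all genes was -0.0027. As deposited, Dbp differed by -0.28 ± 0.10 (adjusted p = 0.464 by limma), Nr1d1 by -0.21 ± 0.10 (0.644), Nr1d2 by -0.21 ± 0.10 (0.644) and Per1 by -0.18 ± 0.11 (0.705). Per1 of 5 treated libraries lay below every wild-type library, where 11 vehicle libraries of 11 did. No member passed the test under either scaling, where 0.262% of all genes passed as deposited and 0.715% after median-ratio scaling, and 4 members had an unadjusted p under 0.05 as deposited, beside 1296 of the 16776 genes tested. With a covariate that splits replicate numbers 1 to 5 from the higher ones, 5 members passed as deposited (Per1, Cry2, Nr1d1, Nr1d2 and Dbp, all lower, adjusted p from 0.0042 to 0.0318 by limma) beside 5155 genes in all, and 0 members passed with it after median-ratio scaling. These comparisons share the vehicle or wild-type libraries with those above.

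**Figure D2:**
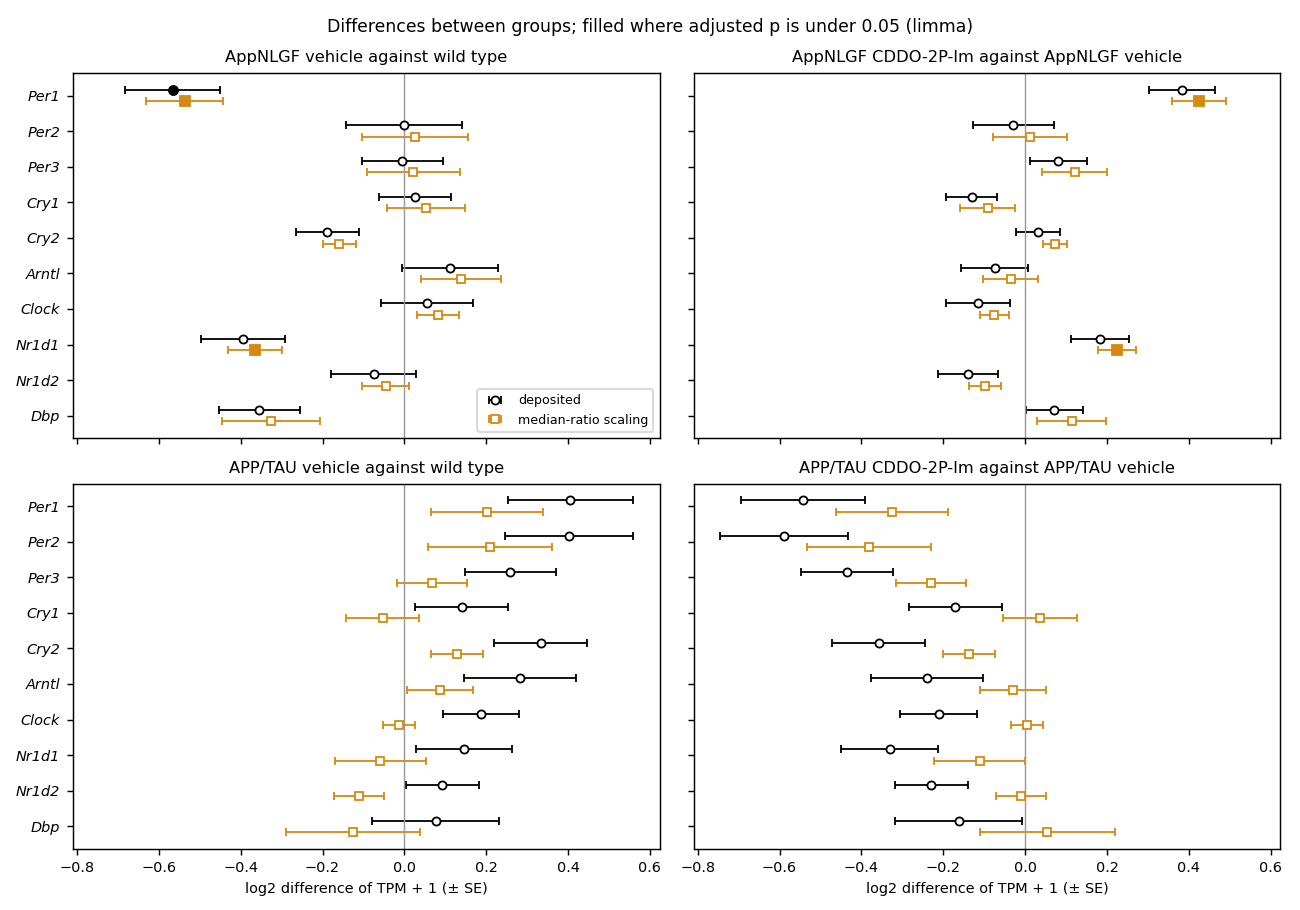
Differences between groups for the 10 clock genes on the log2(TPM + 1) scale with SE, for both cohorts, as deposited (circles) and after median-ratio scaling (squares). Filled symbols have an adjusted p under 0.05 in limma: Per1 under both scalings and Nr1d1 after scaling in AppNLGF vehicle against wild type, and Per1 and Nr1d1 after scaling in treated against vehicle AppNLGF mice.

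In the APP/TAU cohort the order of the groups was another one. APP/TAU vehicle mice had the highest mean of all 10 genes as deposited, above wild type and above treated mice. The same held for most genes of the genome: the median difference over all tested genes was 0.18 between vehicle and wild-type mice and -0.19 between treated and vehicle mice. The most abundant RNA took 22.0 ± 6.59% of TPM in vehicle libraries, 30.1 ± 3.72% in wild-type and 29.5 ± 1.54% in treated libraries (SD, n = 5 each). Member differences are therefore given with those over all genes and after median-ratio scaling.

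**Figure D3:**
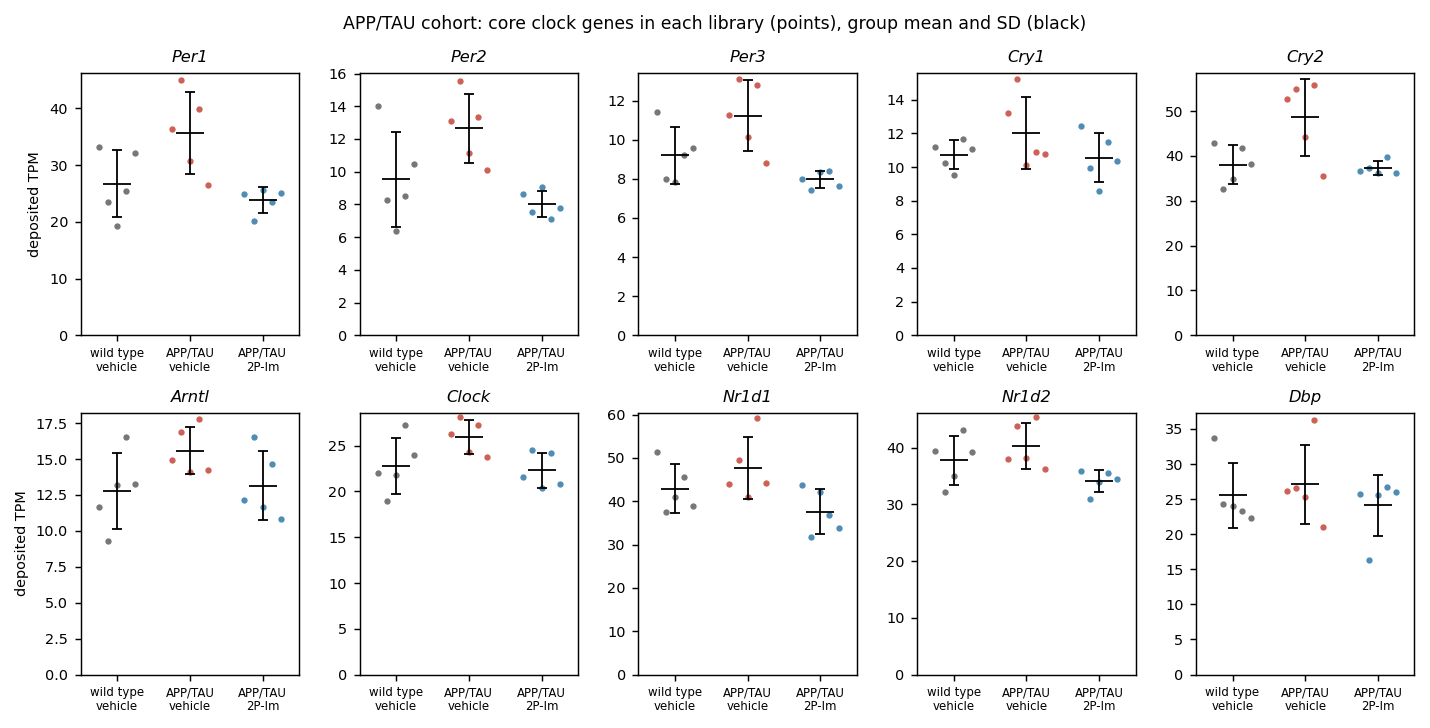
TPM of the 10 clock genes in each library of the APP/TAU cohort, as deposited, by group, with 5 libraries in each of the 3 groups (wild type, vehicle, treated). Points are libraries, and lines and bars are the mean and SD; the treated libraries of Per1 (20.1 to 25.6 TPM), Per2, Per3 and Nr1d2 lie below every vehicle library.

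For vehicle against wild type, Per1 had 36.4, 44.9, 30.7, 39.9 and 26.5 TPM in APP/TAU vehicle libraries and 33.2, 23.5, 19.3, 25.5 and 32.2 TPM in wild type. The groups overlapped, with 3 vehicle libraries above every wild-type one, and the difference of 0.41 ± 0.15 did not pass the test (adjusted p = 0.158 by limma). Cry2 had 52.7, 54.9, 44.2, 55.7 and 35.6 TPM in vehicle libraries and 42.8, 32.7, 34.9, 41.8 and 38.2 TPM in wild type. Vehicle replicate 5 lay among the wild-type libraries and the other 4 above them (0.33 ± 0.11, adjusted p = 0.139 by limma). All 10 differences were positive, from 0.08 (Dbp) to 0.41, with a median of 0.22. After median-ratio scaling they ran from -0.13 (Dbp) to 0.21 (Per2), 5 positive and 5 negative, and Per1 was at 0.20 ± 0.14 (adjusted p = 0.518 by limma). None passed the test, where 0.0227% of all genes passed as deposited and 0.0284% after scaling. The number of members with an unadjusted p under 0.05 was 4 as deposited and 0 after scaling, beside 4186 and 2502 of the 17592 genes tested.

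For treated against vehicle APP/TAU mice, the largest differences were those of the period genes. Per1 had 24.9, 20.1, 25.6, 23.5 and 25.1 TPM in treated libraries, all below the lowest vehicle library at 26.5 TPM. Per2, the other light-responsive period gene, had 8.61, 7.55, 9.08, 7.11 and 7.76 TPM treated and 13.1, 15.6, 11.2, 13.3 and 10.1 TPM with vehicle. Per3, the period gene least needed for rhythm, had 8.01, 7.44, 8.33, 8.42 and 7.63 TPM treated and 11.3, 13.1, 10.1, 12.8 and 8.79 TPM with vehicle. None of these 3 genes had treated libraries overlapping vehicle libraries. The differences were -0.54 ± 0.15 for Per1, -0.59 ± 0.16 for Per2 and -0.44 ± 0.11 for Per3, and none passed the test (adjusted p = 0.167 by limma for each).

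Nr1d2 also had all treated libraries (30.9 to 35.9 TPM) below all vehicle libraries (36.2 to 45.5 TPM), with a difference of -0.23 ± 0.09. Cry2 differed by -0.36 ± 0.11, Nr1d1 by -0.33 ± 0.12, Arntl by -0.24 ± 0.14, Clock by -0.21 ± 0.09, Cry1 by -0.17 ± 0.11 and Dbp by -0.16 ± 0.16. All 10 were negative, and their median was -0.28 beside -0.19 over all genes. The groups did not overlap for 4 genes as deposited, against 3.68% of all tested genes, and for 1 gene, Per2, after median-ratio scaling, against 1.74%. After scaling Per2 differed by -0.38 ± 0.15 (adjusted p = 0.520 by limma), Per1 by -0.32 ± 0.14 (0.547) and Per3 by -0.23 ± 0.09 (0.506). The scaled differences of the remaining genes lay between -0.14 (Cry2) and 0.05 (Dbp), with Clock at 0.00 ± 0.04. No member passed limma's test under either scaling, where 0.0% and 0.0114% of all genes passed, although 7 members as deposited and 4 after scaling had an unadjusted p under 0.05, and 4719 and 1556 of all tested genes had. No member was called on leaving out any 1 library. Immediate early genes had lower values there too, with 15 of 15 differences negative, a median of -0.50 (-0.30 after scaling) and 0 called, and their part was not tested.

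Over all genes, treated APP/TAU mice differed from wild type by a median of -0.012 as deposited and 0.0015 after median-ratio scaling. Treated libraries had lower means than wild type for every member except Arntl, under both scalings. Their differences from wild type ran from -0.19 (Per2) to 0.04 (Arntl), and from -0.17 to 0.06 after scaling, with no member passing the test (adjusted p = 1 for each as deposited, by limma). Of all genes 0.0227% passed as deposited and 0.0284% after scaling. No member reached an unadjusted p under 0.05 under either scaling. Per1, at 23.9 ± 2.27 TPM treated against 26.7 ± 5.89 in wild type, differed by -0.14 ± 0.15.

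The Per1 estimates had opposite signs in the 2 cohorts, although those in the APP/TAU cohort did not pass the test, and the difference between the cohorts was tested over 16418 genes tested in both tables. The treatment effect on Per1 was higher by 0.93 ± 0.16 in the AppNLGF cohort than in the APP/TAU cohort (adjusted p = 0.0059 by limma), and by 0.75 ± 0.14 after median-ratio scaling (0.0118). The genotype effect on Per1 differed by -0.97 ± 0.19 (adjusted p = 0.0103 by limma), and by -0.74 ± 0.16 after scaling (0.0190). Per1 was the 1 member called for treatment under either scaling, where 0.134% of genes were called as deposited and 0.0731% after scaling. For genotype 1 member was called as deposited, against 0.177%, and 2 after scaling, against 0.53%. The second was Cry2, whose genotype effect differed by -0.29 ± 0.07 (adjusted p = 0.0452 by limma) after scaling and by -0.52 ± 0.13 (0.0735) as deposited. The cohorts also differ in age, weeks of dosing and levels of striatal and cerebellar markers, none of which can be told apart from the model, and both tests share the vehicle libraries. They differ in Xist too, which was above 10 TPM in 5 of 11 vehicle and 7 of 13 treated AppNLGF libraries. It was above 10 TPM in 0 libraries of each APP/TAU cohort group, and the cohort difference was not fitted with a term for it.

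The opposing arms of the clock were set against each other within each library. The arm difference is the mean log2(TPM + 1) of Dbp, Nr1d1, Nr1d2, Per1, Per2 and Per3 minus that of Arntl and Clock, and since it scores the members themselves it is described without a test. In the AppNLGF cohort it was 1.05, 1.05, 0.74 and 0.70 in the 4 wild-type libraries, 0.35 to 0.75 in vehicle libraries and 0.30 to 1.19 in treated libraries. The means were 0.88 ± 0.19, 0.57 ± 0.13 and 0.76 ± 0.21 (SD), and wild-type replicates 3 and 4 lay inside the vehicle range. In the APP/TAU cohort it was 0.71, 0.48, 0.09, 0.01 and 0.29 in the wild-type group. Vehicle libraries had 0.32, 0.37, 0.29, 0.41 and 0.17, and treated libraries 0.32, -0.28, 0.39, 0.04 and 0.32. There the groups overlapped widely, and vehicle libraries lay closest together (SD 0.092, against 0.28 in each of the other groups). Median-ratio scaling moves both arms alike and left these means nearly as they were.

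**Figure D4:**
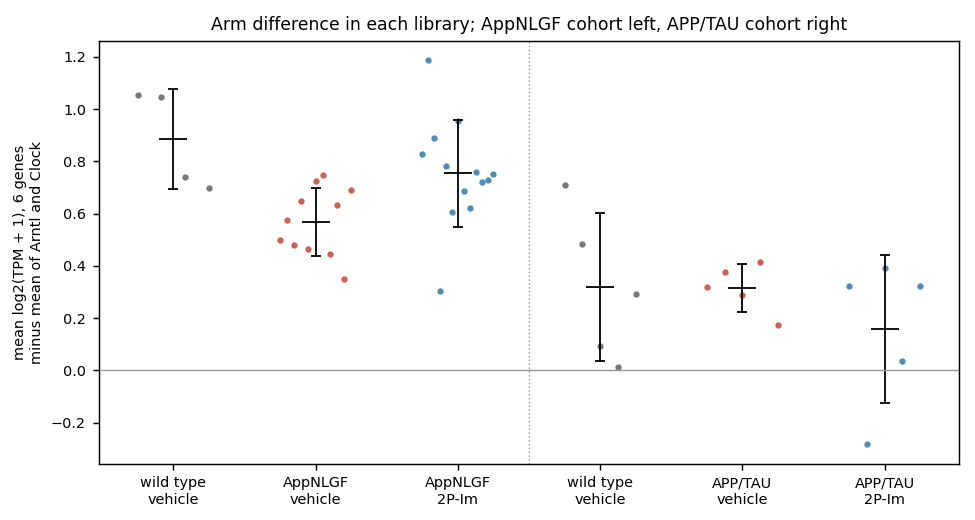
Arm difference per library, as deposited, by group: mean log2(TPM + 1) of Dbp, Nr1d1, Nr1d2, Per1, Per2 and Per3 minus that of Arntl and Clock. Points are libraries, and lines and bars are the mean and SD; AppNLGF vehicle libraries (0.35 to 0.75) lie below 2 of the 4 wild-type libraries, and the APP/TAU groups overlap.

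Members were also compared with each other across libraries within groups, as deviations from each group's mean over 45 pairs a cohort, with Benjamini-Hochberg adjustment over the 45. In the APP/TAU cohort after median-ratio scaling the 3 period genes varied together: Per1 with Per2 had Pearson's r = 0.90 and Spearman's rho = 0.94 over 15 libraries (adjusted permutation p = 0.0024 and 0.0054), and r was 0.89 without the 2 libraries farthest from the median of Per1. Per1 with Per3 had r = 0.90 and rho = 0.83 (adjusted permutation p = 0.0024 and 0.0169), and 0.88 without the 2 farthest. Per3 with Cry2 had r = 0.82 and rho = 0.77 (0.0024 and 0.0169), and 0.75 without them. Nr1d1 with Dbp had r = 0.79 and rho = 0.80 (0.0045 and 0.0146), and 0.70 without them. Of the 45 pairs 15 had an adjusted p under 0.05, all positive, and 13 did as deposited. Without the 2 farthest libraries fewer passed after scaling, as counted in the closing section.

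In the AppNLGF cohort, with 28 libraries, the same scaling gave 8 such pairs, of which 3 were negative and all held Clock. Clock, an activator, ran against Per3 (r = -0.67, rho = -0.67, adjusted permutation p = 0.0072 and 0.0063, r = -0.63 without the 2 farthest libraries), Dbp (r = -0.66, rho = -0.64, adjusted permutation p = 0.0146 and 0.0186, r = -0.59) and Cry1 (r = -0.55, rho = -0.51, adjusted permutation p = 0.0321 and 0.0789, r = -0.40). Among replicate numbers 1 to 5 and among numbers 6 and above, Clock with Per3 had r = -0.69 and -0.58. Fewer pairs than 8 passed in each of these sets and without the 2 farthest libraries, as counted in the closing section. Per1 with Per2 had r = 0.53 and rho = 0.62 (adjusted permutation p = 0.0321 and 0.0186), and 0.52 without the 2 farthest. As deposited 12 pairs passed and none of them was negative, and r of Clock was -0.067 with Per3, -0.12 with Dbp and 0.10 with Cry1, so that these calls depended on the scaling. All values of a library share its scaling, and the part of this in the correlations was not tested.

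**Figure D5:**
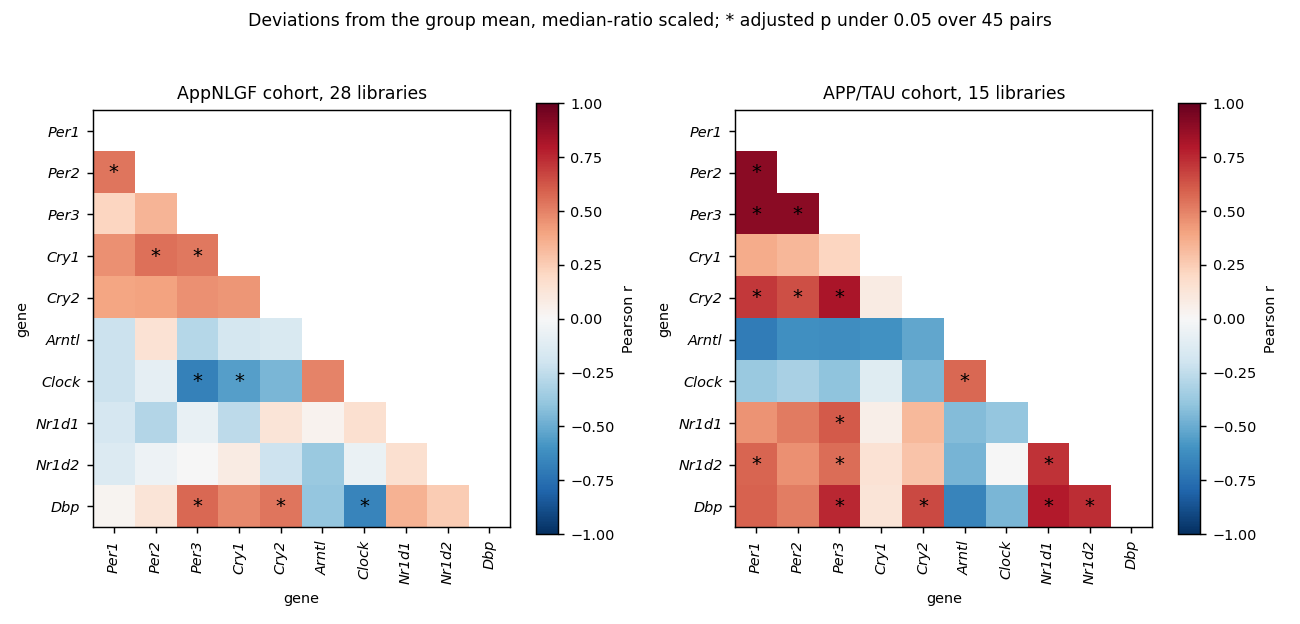
Pearson's r for each pair of clock genes across libraries of a cohort after median-ratio scaling, as deviations from group means, with 28 AppNLGF cohort and 15 APP/TAU cohort libraries. Color gives r from -1 to 1; Per1, Per2 and Per3 are at r = 0.90 with each other in the APP/TAU cohort, and Clock is at -0.67 with Per3 in the AppNLGF cohort.

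Genes outside the 10 whose deviations were most like those of a member were listed by Pearson's r after median-ratio scaling, as a description. For Per1 these were Zfp189 (0.73), Kdm6b (0.72) and Cd3eap (0.71) over the 28 AppNLGF cohort libraries, and Cnnm4 (0.95), the orphan nuclear receptor gene Nr4a2 (0.93) and Gm42843 (0.92) over the 15 APP/TAU cohort libraries. Per2 was most like Xbp1, a transcription factor of the unfolded protein response (0.75), in the first cohort and most like Nr4a2 (0.91) in the second. Nr1d1 was most like Rragd (0.70) and Ankrd12 (0.86), Dbp most like C1qtnf4 (0.78) and Gm4660 (0.84), and Arntl most like Ttbk1 (0.79) and 4930432B10Rik (0.88). Nr4a2 is itself on the list of immediate early genes.

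A further 22 clock genes, the partners, kinases, ubiquitin ligases and outputs of the loop, gave no call in any comparison under either scaling, with 20 tested in the AppNLGF and 21 in the APP/TAU table. The one nearest the threshold was Ciart, a repressor of CLOCK and BMAL1 also called CHRONO. It had 10.7 TPM in AppNLGF vehicle mice and 17.6 TPM in wild type, a difference of -0.67 ± 0.15 (adjusted p = 0.0517 by limma, 0.0652 after median-ratio scaling), and was at 0.27 ± 0.11 in treated against vehicle mice (0.761). Usp2, a deubiquitinase that acts on clock proteins, differed by -0.24 ± 0.08 in vehicle and by -0.29 ± 0.07 in treated AppNLGF mice against wild type (adjusted p = 0.427 and 0.161 by limma). In vehicle AppNLGF mice 17 of the 20 genes were negative, with a median of -0.052 beside -0.026 over all genes. In the APP/TAU cohort the smallest p in treated against vehicle belonged to Hlf (-0.35 ± 0.09), Bhlhe40 (-0.38 ± 0.12), Tef (-0.31 ± 0.10) and Wee1 (-0.28 ± 0.09), each at an adjusted p of 0.167 by limma. Hlf and Tef are of the same PAR bZIP family as Dbp. All 21 were negative there, with a median of -0.24 beside -0.19 over all genes, and after scaling 14 of 21 were negative with a median of -0.027.

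Gene entries did not hold all TPM in the APP/TAU table, which lists no single transcripts. They held 84.9 to 88.6% in vehicle libraries, 87.6 to 90.8% in wild type and 88.1 to 89.8% in treated libraries. What makes up the rest there is unknown. The AppNLGF table lists 23 single transcripts of the clock genes as entries apart from the gene entries. They made up from 39.9% (Per3), 30.6% (Nr1d2) and 28.2% (Clock) down to 4.57% (Nr1d1) of the summed level of their gene, and the 1 listed for Per2 was at 0 TPM in every library. With transcripts added to their genes, an alternative chosen after seeing the data, Per1 differed by -0.58 in vehicle against wild type (adjusted p = 0.0281 by limma) and by 0.46 in treated against vehicle (0.0213), so that the second comparison passed as deposited. Whether groups overlap with transcripts added was not looked at. The entries apart took 0 to 31.4% of Per1 in a library. Its protein-coding transcript ENSMUST00000132462 had 6.21 ± 6.17 TPM in wild type, 4.07 ± 3.85 with vehicle and 7.71 ± 5.84 after treatment (SD). A retained-intron transcript of Nr1d2, ENSMUST00000143308, had 6.85 ± 0.76 TPM in wild-type mice, 4.99 ± 1.14 with vehicle and 6.88 ± 1.17 after treatment (SD), with no test made for single transcripts. It is 1 of the 23, and the gene entry of Nr1d2 had 32.8, 31.2 and 28.3 TPM in the same groups. A retained-intron transcript of Per3, ENSMUST00000138584, had 4.47, 4.20 and 4.21 TPM.

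Several of the 10 genes overlap others on GRCm38 (GENCODE M21). Nr1d1 (chr11:98767932-98775333, minus strand) overlaps Thra, and Dbp (chr7:45705088-45710203, plus strand) overlaps Sphk2, each on the opposite strand, and Per3 (chr4:151003652-151044665, minus strand) shares its strand with the overlapping Camta1. The library kit keeps strand, but the sources used here do not say whether quantification used it, so reads could be split between these genes in ways the values do not show.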

How the data were processed

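RNA of 43 mouse brains was prepared with a Sepasol extraction and the MGIEasy directional kit, per the labels' protocols. The authors deposited TPM for each library, from Salmon on GRCm38, per the submitters' processing notes, and neither the Salmon version nor the annotation is given in the sources used here. The members and gene lists were chosen with earlier results of these data known, and the named genes are all 10 members and, of the other clock genes, those called or the 4 with the smallest p. Gene entries (55804 a table, 51327 with a symbol) with a mean TPM of at least 1 were tested, 16776 for AppNLGF and 17592 for APP/TAU. Tests used log2(TPM + 1), a scale that understates changes of low genes. The fit was limma 3.58.1 in R 4.3.3, with 1 mean per group, a variance trend and Benjamini-Hochberg adjustment over all genes tested, two-sided, called at 0.05. limma was tested on simulated data. Cohort differences were contrasts of both tables fitted together. Correlations used 100000 permutations within groups (scipy 1.17.1). Promoter sequences are RefSeq's. Scaling, filters, pseudocount, covariates and libraries left out were varied. Whether replicate numbers pair libraries is unknown. Depth is unknown.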

Additional observations from a re-analysis of the deposited data

Results flagged for a closer look

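In 3 of the 44 sets of values looked at (member levels and the arm difference in groups of 4 to 10 libraries), 1 library lay far from the rest, where chance gives about 1 set in 20. Cry2 was at 39.9 TPM in treated APP/TAU replicate 4 and at 36.2 to 37.2 TPM in the other 4. Dbp was at 33.8 TPM in wild-type replicate 1 of the APP/TAU cohort and at 22.3 to 24.3 TPM in the others. Dbp was also at 16.3 TPM in treated APP/TAU replicate 2, where the others had 25.6 to 26.7 TPM, and this library had the lowest arm difference of all, -0.28.

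The effects on Per1 differed between the cohorts. The treatment effect was 0.93 higher in the AppNLGF cohort as deposited and 0.75 higher after median-ratio scaling, and the genotype effect differed by -0.97 and -0.74. The genotype effect on Cry2 differed by -0.29 after scaling. Each passed limma's test over all genes tested in both tables.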

How the results depend on the processing

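Each member fold, each count of calls, the arm difference and the number of member pairs were recomputed under other settings. Of the member folds under alternatives, 2293 kept their sign and their side of the threshold, 289 changed sign, 102 passed the threshold where the deposited values did not, and 6 no longer passed. Many of the 102 repeat the same results with median-ratio scaling and 1 library left out. In treated against vehicle AppNLGF these were Per1 in 24 runs and Nr1d1 in 22. In AppNLGF vehicle against wild type Nr1d1 passed in 15 such runs. Per1 kept its sign in every setting run. The cause of a change was not tested. TPM keep no depth, so what depth limits could not be measured. Under median-ratio scaling 4 genes were called higher and 1 lower in APP/TAU vehicle against wild type, where 4 were higher and none lower as deposited (limma). With median-ratio scaling, calls were 116 genes and 2 members in AppNLGF vehicle against wild type, 48 genes and 2 members in treated against vehicle AppNLGF and 120 genes in treated AppNLGF against wild type. Under median-ratio scaling, calls were 2 genes in treated against vehicle APP/TAU, 12 genes in the cohort difference in treatment and 87 genes and 2 members in the cohort difference in genotype. Sign changes with median-ratio scaling were Per2 (0.026) and Per3 (0.022) in AppNLGF vehicle against wild type and Per2 (0.012) in treated against vehicle AppNLGF. Under median-ratio scaling the sign changed for Per2 (0.038) and Clock (0.0079) in treated AppNLGF against wild type and Cry1 (-0.052), Clock (-0.013), Nr1d1 (-0.059), Nr1d2 (-0.11) and Dbp (-0.13) in APP/TAU vehicle against wild type. Sign changes with median-ratio scaling were Cry1 (0.036), Clock (0.0043) and Dbp (0.054) in treated against vehicle APP/TAU and Cry1 (-0.13), Arntl (-0.0057), Clock (-0.079) and Nr1d2 (-0.088) in the cohort difference in treatment. Under median-ratio scaling the sign changed for Cry1 (0.11), Arntl (0.050), Clock (0.096) and Nr1d2 (0.065) in the cohort difference in genotype. With quantile normalization, calls were 118 genes and 2 members in AppNLGF vehicle against wild type, 46 genes and 2 members in treated against vehicle AppNLGF and 114 genes in treated AppNLGF against wild type. Under quantile normalization, calls were 2 genes in treated against vehicle APP/TAU and 7 genes in treated APP/TAU against wild type. Sign changes with quantile normalization were Per2 (0.027) and Per3 (0.023) in AppNLGF vehicle against wild type and Per2 (0.0094) in treated against vehicle AppNLGF. Under quantile normalization the sign changed for Per2 (0.036) and Clock (0.018) in treated AppNLGF against wild type and Cry1 (-0.055), Nr1d1 (-0.028), Nr1d2 (-0.083) and Dbp (-0.10) in APP/TAU vehicle against wild type. Sign changes with quantile normalization were Cry1 (0.032) and Dbp (0.048) in treated against vehicle APP/TAU and Cry2 (0.011) and Clock (0.0077) in treated APP/TAU against wild type. With exclusion of mitochondrial and the 20 most abundant genes, calls were 111 genes and 2 members in AppNLGF vehicle against wild type, 52 genes and 2 members in treated against vehicle AppNLGF and 124 genes in treated AppNLGF against wild type. Under exclusion of mitochondrial and the 20 most abundant genes, calls were 8 genes in APP/TAU vehicle against wild type, 2 genes in treated against vehicle APP/TAU and 13 genes in the cohort difference in treatment. Under exclusion of mitochondrial and the 20 most abundant genes, calls were 65 genes and 2 members in the cohort difference in genotype. Sign changes with exclusion of mitochondrial and the 20 most abundant genes were Per2 (0.024) and Per3 (0.020) in AppNLGF vehicle against wild type and Per2 (0.0090) in treated against vehicle AppNLGF. Under exclusion of mitochondrial and the 20 most abundant genes the sign changed for Per2 (0.033) and Clock (0.0020) in treated AppNLGF against wild type and Cry1 (-0.026), Nr1d1 (-0.029), Nr1d2 (-0.082) and Dbp (-0.098) in APP/TAU vehicle against wild type. Sign changes with exclusion of mitochondrial and the 20 most abundant genes were Cry1 (0.016) and Dbp (0.032) in treated against vehicle APP/TAU and Cry1 (-0.12), Clock (-0.063) and Nr1d2 (-0.071) in the cohort difference in treatment. Under exclusion of mitochondrial and the 20 most abundant genes the sign changed for Cry1 (0.080), Arntl (0.022), Clock (0.066) and Nr1d2 (0.033) in the cohort difference in genotype. With minimum mean TPM of 5, calls were 31 genes in AppNLGF vehicle against wild type and 25 genes in treated AppNLGF against wild type. With only the 2 groups compared fitted, calls were 79 genes in AppNLGF vehicle against wild type and 13 genes in treated AppNLGF against wild type. With a term for Xist above 10 TPM, calls were 0 members in AppNLGF vehicle against wild type, 14 genes in treated against vehicle AppNLGF and 23 genes in treated AppNLGF against wild type. Sign changes with a term for Xist above 10 TPM were Per3 (0.023) in AppNLGF vehicle against wild type. With a covariate splitting numbers 1 to 5 from those above, calls were 201 genes and 4 members in AppNLGF vehicle against wild type, 22 genes and 1 member in treated against vehicle AppNLGF and 5155 genes and 5 members in treated AppNLGF against wild type. Sign changes with a covariate splitting numbers 1 to 5 from those above were Cry1 (-0.042) and Clock (-0.093) in AppNLGF vehicle against wild type and Per3 (-0.0095) and Arntl (-0.050) in treated AppNLGF against wild type. With median-ratio scaling and a covariate splitting numbers 1 to 5 from those above, calls were 97 genes and 2 members in AppNLGF vehicle against wild type, 75 genes and 2 members in treated against vehicle AppNLGF and 126 genes in treated AppNLGF against wild type. Sign changes with median-ratio scaling and a covariate splitting numbers 1 to 5 from those above were Per3 (0.065) in AppNLGF vehicle against wild type and Per2 (0.0034) in treated against vehicle AppNLGF. Under median-ratio scaling and a covariate splitting numbers 1 to 5 from those above the sign changed for Cry1 (0.014) in treated AppNLGF against wild type. With transcripts added to their genes, calls were 1 member in treated against vehicle AppNLGF. Sign changes with transcripts added to their genes were Nr1d2 (0.013) in treated against vehicle AppNLGF. With transcripts added to their genes and median-ratio scaling, calls were 96 genes and 2 members in AppNLGF vehicle against wild type, 53 genes and 2 members in treated against vehicle AppNLGF and 131 genes in treated AppNLGF against wild type. Sign changes with transcripts added to their genes and median-ratio scaling were Per2 (0.023) and Per3 (0.017) in AppNLGF vehicle against wild type and Nr1d2 (0.035) in treated against vehicle AppNLGF. Under transcripts added to their genes and median-ratio scaling the sign changed for Per2 (0.017) and Cry1 (0.022) in treated AppNLGF against wild type. With replicate numbers 1 to 5 alone, calls were 2 members in AppNLGF vehicle against wild type, 0 genes in treated against vehicle AppNLGF and 5307 genes and 3 members in treated AppNLGF against wild type. Sign changes with replicate numbers 1 to 5 alone were Cry1 (-0.053) and Clock (-0.078) in AppNLGF vehicle against wild type and Per2 (0.12) in treated against vehicle AppNLGF. Under replicate numbers 1 to 5 alone the sign changed for Arntl (-0.076) in treated AppNLGF against wild type. With replicate numbers 1 to 5 alone and median-ratio scaling, calls were 0 members in AppNLGF vehicle against wild type, 16 genes in treated against vehicle AppNLGF and 24 genes in treated AppNLGF against wild type. Sign changes with replicate numbers 1 to 5 alone and median-ratio scaling were Per2 (0.22) in treated against vehicle AppNLGF and Per2 (0.069) and Cry1 (0.050) in treated AppNLGF against wild type. With replicate numbers 6 and above alone, calls were 1 gene in treated against vehicle AppNLGF. Sign changes with replicate numbers 6 and above alone were Per3 (-0.0048) in treated against vehicle AppNLGF. With replicate numbers 6 and above alone and median-ratio scaling, calls were 5 genes in treated against vehicle AppNLGF. With treated AppNLGF libraries 1 and 2 left out, calls were 75 genes in treated AppNLGF against wild type. Sign changes with treated AppNLGF libraries 1 and 2 left out were Clock (0.0085) in treated AppNLGF against wild type. With treated AppNLGF libraries 1 and 2 left out and median-ratio scaling, calls were 29 genes and 1 member in treated against vehicle AppNLGF and 147 genes in treated AppNLGF against wild type. Sign changes with treated AppNLGF libraries 1 and 2 left out and median-ratio scaling were Per2 (0.019) and Clock (0.033) in treated AppNLGF against wild type. Sign changes with libraries APP/TAU vehicle 2 and 4 left out were Nr1d2 (-0.0064) and Dbp (-0.067) in APP/TAU vehicle against wild type. With libraries APP/TAU vehicle 2 and 4 left out and median-ratio scaling, calls were 1 gene in treated against vehicle APP/TAU. Sign changes with libraries APP/TAU vehicle 2 and 4 left out and median-ratio scaling were Cry1 (-0.022), Nr1d1 (-0.080), Nr1d2 (-0.10) and Dbp (-0.16) in APP/TAU vehicle against wild type and Cry1 (0.0052) and Dbp (0.090) in treated against vehicle APP/TAU. Per1 fell in AppNLGF vehicle mice by 0.69 among replicate numbers 1 to 5 alone and by 0.58 with transcripts added to their genes.

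Libraries of the same replicate number in different groups had correlations of their deviations from -0.079 to 0.12. Libraries of different numbers were not set beside them, and the labels do not say whether numbers pair libraries, so a pairing is not excluded. Fits with a replicate block are given here. With the block Per1 differed by -0.65 in AppNLGF vehicle against wild type (adjusted p = 0.0280 by limma). With the block after median-ratio scaling it differed by -0.51 and did not pass (0.112). Ranges of numbers did differ: ENSMUSG00000118866 took 34.4 to 38.0% of TPM in AppNLGF vehicle libraries 1 to 5 and 29.1 to 33.1% in 6 to 11. In treated AppNLGF libraries it took 32.5 to 40.0% in 1 to 5 and 28.3 to 37.2% in 6 to 13. Wild-type libraries of that cohort, numbered 1 to 4, had 30.7 to 33.7%. What lies behind these ranges was not tested. With replicate block, calls were 29 genes and 2 members in AppNLGF vehicle against wild type, 4 genes in treated against vehicle AppNLGF and 3222 genes and 4 members in treated AppNLGF against wild type. Sign changes with replicate block were Cry1 (-0.029) and Clock (-0.085) in AppNLGF vehicle against wild type and Per3 (-0.0070) and Arntl (-0.056) in treated AppNLGF against wild type. With median-ratio scaling and replicate block, calls were 0 members in AppNLGF vehicle against wild type, 18 genes in treated against vehicle AppNLGF and 2 genes in treated against vehicle APP/TAU. Sign changes with median-ratio scaling and replicate block were Per3 (0.053) in AppNLGF vehicle against wild type and Per2 (0.0058) in treated against vehicle AppNLGF. Under median-ratio scaling and replicate block the sign changed for Cry1 (0.030) in treated AppNLGF against wild type and Cry1 (-0.052), Clock (-0.013), Nr1d1 (-0.059), Nr1d2 (-0.11) and Dbp (-0.13) in APP/TAU vehicle against wild type. Sign changes with median-ratio scaling and replicate block were Cry1 (0.036), Clock (0.0043) and Dbp (0.054) in treated against vehicle APP/TAU.

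Leaving out 1 library at a time, with deposited and with scaled values, the number called ranged over 29 to 119 genes and 0 to 2 members in AppNLGF vehicle against wild type, 17 to 129 genes in treated AppNLGF against wild type. Further ranges were 5 to 89 genes and 0 to 2 members in treated against vehicle AppNLGF, 4 to 14 genes in APP/TAU vehicle against wild type. Further ranges were 4 to 7 genes in treated APP/TAU against wild type, 0 to 4 genes in treated against vehicle APP/TAU. AppNLGF vehicle against wild type gave folds of Per2 -0.078 to 0.080, Per3 -0.044 to 0.058, Cry1 -0.023 to 0.11 and Nr1d2 -0.12 to 0.0035. Treated AppNLGF against wild type gave folds of Per2 -0.11 to 0.092, Cry1 -0.15 to 0.014, Arntl -0.064 to 0.20 and Clock -0.10 to 0.038. Treated against vehicle AppNLGF gave folds of Per2 -0.071 to 0.051. APP/TAU vehicle against wild type gave folds of Cry1 -0.088 to 0.19, Clock -0.034 to 0.25, Nr1d1 -0.11 to 0.21, Nr1d2 -0.14 to 0.14 and Dbp -0.22 to 0.18. Treated APP/TAU against wild type gave folds of Cry1 -0.086 to 0.034, Cry2 -0.077 to 0.028, Arntl -0.056 to 0.14, Clock -0.084 to 0.041 and Dbp -0.16 to 0.078. Treated against vehicle APP/TAU gave folds of Cry1 -0.23 to 0.079, Arntl -0.32 to 0.018, Clock -0.25 to 0.026, Nr1d2 -0.27 to 0.045 and Dbp -0.24 to 0.20. The arm difference taken as Dbp minus Arntl was -0.47 in AppNLGF vehicle against wild type and 0.077 in treated against vehicle APP/TAU. Member pairs with an adjusted permutation p under 0.05 after median-ratio scaling numbered 1 in the AppNLGF and 5 in the APP/TAU cohort without the 2 libraries farthest from the median of the x gene, 0 among AppNLGF cohort replicate numbers 1 to 5 and 3 among numbers 6 and above. The settings added after seeing the data were the added transcripts, the sets of replicate numbers, the libraries left out as pairs, and median-ratio scaling combined with a library left out, the block or the farthest libraries. The covariate for replicate numbers was planned, as were the other settings.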
